A study of Mus musculus with 3 samples.

Results

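The cells described here are those in which at least 1 transcript molecule of the cholinergic genes Slc18a3 or Chat was counted at 14 dpi, the later of 2 sampled times, during the conversion of mouse embryonic fibroblasts into motor neurons. A kept cell had at least 500 genes and at most 20% of its unique molecular identifiers (UMIs, counted transcript molecules) from mitochondrially encoded genes. It was called positive when its Slc18a3 and Chat UMIs summed to at least 1. By this rule 831 of 6030 kept cells at 14 dpi were positive, out of 10522 kept cells in the series. They were 343 of 2314 cells in the library with supplements and 488 of 3716 cells in the library without supplements. The levels of Slc18a3 and Chat chose the cells, so they are given as a description and not as a result.

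All cells came from mouse embryonic fibroblasts of Hb9::GFP genotype, in which control elements of Mnx1 (Hb9), a motor neuron gene, drive green fluorescent protein. In every group the cells had received LNI, a cassette of mouse Lhx3, mouse Ngn2 (Neurog2) and Isl1, together with DDRR, which joins the activated mutant HRAS(G12V) to p53DD, an inhibitory fragment of p53. One 14 dpi library came from Hb9::GFP+ sorted cells made with the supplements BDNF, CNTF, GDNF and FGF, which are growth factors, and RepSox, an inhibitor of TGF-beta receptor kinase. The other 14 dpi library came from Hb9::GFP+ sorted cells made without these supplements. A 4 dpi library, made with supplements, was gated on low CellTrace-FarRed, a stain that each division dilutes. Each group has 1 library, all carry the same batch date, and the sources used here do not give the number of embryos or cultures behind a library. The gate on Mnx1 regulatory sequence acted on positive and negative cells alike, and counts of Lhx3, Neurog2, Isl1, Hras and Trp53 can hold cassette as well as endogenous transcripts.

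Cholinergic neurons make acetylcholine with choline acetyltransferase, the product of Chat, and load it into synaptic vesicles with the vesicular acetylcholine transporter VAChT, the product of Slc18a3. Slc18a3 lies inside the first intron of Chat, an arrangement called the cholinergic gene locus, so that both genes can be switched on together. Spinal motor neurons use acetylcholine to drive muscle, and they also take up choline with the transporter Slc5a7, break acetylcholine down with acetylcholinesterase (Ache) and express Mnx1 and the axon-branching protease Ecel1.

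The positive cells were deeper than the others. With supplements their median was 16970 UMIs, against 13805 in negative cells, and without supplements it was 14530.5 against 10236. Each library was therefore cut into depth quartiles by UMIs per kept cell, and positive cells were set against negative cells of the same quartile. Of 3 kept barcodes that the 14 dpi libraries share, none was positive in both. Mitochondrially encoded genes took 6.89% of the UMIs of positive cells against 5.89% with supplements, and 5.72% against 4.68% without. Ribosomal protein genes took 11.6% against 14.4% with supplements and 15.3% against 20.7% without. The top 5% of doublet scores held 7.58% of positive against 4.57% of negative cells with supplements, and 7.79% against 4.58% without. The part of these differences in the gene comparisons was not tested, but the counts of genes stayed within 1.5 times after the highest doublet scores were left out, and after ribosomal and mitochondrial genes were left out of the totals.

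Most positive cells rested on 1 molecule. With supplements 216 of the 343 positive cells had exactly 1 UMI of the gene pair, 127 had 2 or more and the highest cell had 27. Without supplements 316 of 488 had exactly 1 UMI, 172 had 2 or more and the highest had 14. The lowest value inside the rule is therefore 1 UMI and the value just outside it is 0. Negative cells thus include cells whose cholinergic transcripts were not sampled.

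The positive share was 14.8% of kept cells with supplements (95% exact binomial interval 13.4 to 16.3) and 13.1% without supplements (12.1 to 14.3). These intervals, like all those below, cover counting error only, and with 1 library per group no difference between cultures was tested. When every cell was thinned to 5000 UMIs, the shares became 6.90% (5.86 to 8.07) with and 7.26% (6.41 to 8.18) without supplements. Thinning left out 214 and 298 shallower cells with and without supplements, 11 of them positive in each library. The order of the libraries thus turned round at equal depth, and the intervals overlapped. In both libraries the share was higher in deeper quartiles, as the plot of shares shows. It was 7.94% in the lowest and 20.2% in the highest quartile with supplements, and 5.81% and 25.2% without.

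**Figure D1:**
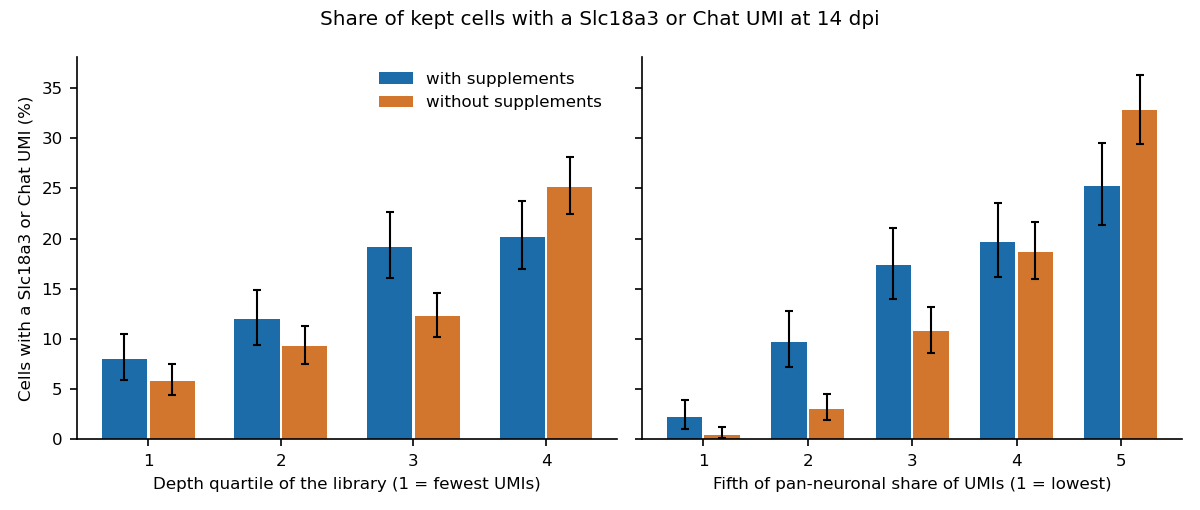
Share of kept 14 dpi cells with at least 1 Slc18a3 or Chat UMI (vertical axis, percent) by depth quartile (left) and by quintile of the pan-neuronal share of UMIs (right). Bars are the libraries with (blue, n = 2314 cells) and without supplements (orange, n = 3716 cells), lines are 95% exact binomial intervals, and the share runs from 2.16% to 25.3% with supplements and from 0.404% to 32.8% without supplements across the quintiles.

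The positive share was higher among cells richer in neuronal transcripts. Kept cells of each library were ranked by the share of their UMIs from 22 pan-neuronal genes such as Tubb3, Map2 and Snap25, and cut into quintiles (5 equal groups). In the lowest quintile 2.16% of cells were positive with supplements and 0.404% without. In the highest quintile 25.3% were positive with supplements and 32.8% without. Within the deepest quartile alone the share in the highest quintile was 37.6% (53 of 141 cells) with and 52.2% (132 of 253 cells) without supplements, so the gradient was present among cells of similar depth. Even there many cells rich in neuronal transcripts had no UMI of either gene. Of the positive cells, 34.1% with supplements and 50% without lay in the highest quintile.

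The share in the most fibroblast-like cells was taken as a background. These cells had passed the same Hb9::GFP+ gate, and whether their molecules were stray was not tested. In cells that were in the top quintile for fibroblast genes and the bottom quintile for pan-neuronal genes, 8 of 304 (2.63%, 1.14 to 5.12) were positive with supplements, at a median of 11779.5 UMIs. Without supplements 1 of 427 such cells (0.234%, 0.00593 to 1.30) was positive, at a median of 8942 UMIs. After thinning to 5000 UMIs these became 4 of 281 cells (1.42%) and 0 of 382 cells, which by the limit of 3 counts allows a share of cells with a UMI of up to 0.785%. The shares over all kept cells were above these values in both libraries.

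The makeup of the positive cells follows from the counts that chose them and is given as a description. With supplements 285 positive cells had Slc18a3 only, 31 had both genes and 27 had Chat only. Without supplements 341 had Slc18a3 only, 67 had both and 80 had Chat only. Chat was detected in 9.81% of Slc18a3-positive cells (31 of 316) against 1.35% of Slc18a3-negative cells (27 of 1998) with supplements, and in 16.4% (67 of 408) against 2.42% (80 of 3308) without. In the deepest quartile these shares were 12.5% against 1.07% with supplements and 18.5% against 4.66% without, and in the shallowest 2.63% against 1.48% and 4.88% against 1.46%, with overlapping intervals. Chat gave 72 UMIs beside 592 of Slc18a3, or 10.8% of the pair (8.58 to 13.5), with supplements and 185 beside 615, or 23.1% (20.2 to 26.2), without. These intervals treat UMIs as independent, although cells contributed up to 27 of them, and no difference between the libraries was tested.

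The start regions of both genes are shown because the third transcript of the locus, described next, follows the pair. They are the RefSeq sequences before the annotated starts on build GRCm38.p6, minus strand, written 5′ to 3′. Slc18a3 is at chr14:32464851-32465100, inside a Chat intron, and Chat at chr14:32465990-32466159, cut to the bases before the farthest annotated Chat start. Capitals mark TAAT, the core bound by many homeodomain factors such as Lhx3, Isl1 and Mnx1 (read as ATTA on this strand), and TGACG, a cyclic AMP response element half-site (read as CGTCA).
Slc18a3: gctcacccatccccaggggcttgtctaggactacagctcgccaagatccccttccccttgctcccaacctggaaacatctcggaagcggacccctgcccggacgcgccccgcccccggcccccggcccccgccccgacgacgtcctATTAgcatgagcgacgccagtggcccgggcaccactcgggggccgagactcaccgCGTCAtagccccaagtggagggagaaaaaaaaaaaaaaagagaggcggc
Chat: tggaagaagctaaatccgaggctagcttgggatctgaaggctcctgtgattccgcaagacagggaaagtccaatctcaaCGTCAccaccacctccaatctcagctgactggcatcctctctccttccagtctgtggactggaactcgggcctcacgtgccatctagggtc
TAAT stood on either strand in 54.9% of the 250-base windows before 32851 annotated starts, and TGACG in 17.8%. A match is therefore a description of these letters and not a binding site.

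The gene ranked first by the interval bound nearest 0 in both libraries was Gm2990, a long noncoding RNA of the same locus. By the GENCODE annotation of GRCm38 it is transcribed from the opposite strand, starts 192 bases from the start of Slc18a3 within the window printed above, and overlaps the first 948 bases of Chat. Summed over cells and scaled to 1e+06 UMIs (counts per 1e+06, CPM), it stood at 20.5 CPM in positive cells against 2.99 CPM in negative cells of the same depth with supplements. The log2 ratio, positive over negative, was 2.78 (counting interval 2.38 to 3.18). Without supplements it stood at 21.7 against 5.23 CPM, a log2 ratio of 2.05 (1.74 to 2.37). It was higher in positive cells in all 4 depth quartiles of both libraries. No single positive cell held more than 2.99% of its UMIs with or 2.29% without supplements.

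Gm2990 also stood higher where more molecules of the pair were counted. Within the deepest quartile of the library with supplements it had 2.27, 14.9, 20.7 and 22.8 CPM in cells with 0, 1, 2 and at least 3 UMIs of the pair (462, 59, 25 and 33 cells). Without supplements the values were 4.52, 15.4, 25.8 and 29.9 CPM (695, 132, 52 and 50 cells). The intervals of neighbouring classes of positive cells overlapped, while those of cells with 0 UMIs lay below all others. Gm2990 does not overlap Slc18a3 itself in the annotation. The sources used here do not say whether the authors' counting used strand, so reads of Gm2990 and of the overlapped end of Chat cannot be told apart. In cells with Slc18a3 but no Chat UMI, Gm2990 stood at 20.2 CPM, against 3.27 CPM in cells with neither gene, with supplements, and at 20.7 against 5.74 CPM without, here with no match of depth.

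The label of the cells was checked against Mnx1 and Ecel1, which the rule did not use. Mnx1, the transcription factor that marks somatic motor neurons, stood at 17.3 CPM in positive against 10.4 CPM in negative cells with supplements (log2 ratio 0.74, 0.41 to 1.05). Without supplements it stood at 40.3 against 18.1 CPM (1.15, 0.95 to 1.36). Ecel1 stood at 63.6 against 26.3 CPM with supplements (1.27, 1.10 to 1.45) and at 216 against 85.2 CPM without (1.34, 1.25 to 1.43). At the same depth both markers were thus higher in positive cells in both libraries, by less when equally neuronal cells were compared (matching on the pan-neuronal share of UMIs as well). Mnx1 then had ratios of 0.42 (0.09 to 0.76) with and 0.23 (0.00 to 0.45) without supplements, both under 1.5-fold. Ecel1 had 0.75 (0.57 to 0.93) with and 0.33 (0.23 to 0.42) without supplements, the second under 1.5-fold. Ecel1 was higher in all 4 depth quartiles of each library. Mnx1 was higher in all 4 without supplements and in 3 of 4 with them, the exception being the shallowest, at 16.4 against 17.5 CPM.

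Few cells showed the full marker set at equal depth. After thinning to 5000 UMIs, Mnx1 was detected in 8.43% of positive against 4.92% of negative cells with supplements and in 15.9% against 7.24% without. Ecel1 was detected in 22.6% against 10.9% with supplements and in 52.6% against 25.6% without. Mnx1 and Ecel1 together were found in 1.81% of positive against 0.848% of negative cells with supplements (6 of 332 and 15 of 1768 cells). Without supplements they were found together in 9.64% against 2.82% (46 of 477 and 83 of 2941 cells). Unthinned, they were found together in 11.1% against 3.65% with supplements and in 26.0% against 7.71% without, so most positive cells did not show both markers. The unthinned shares of Mnx1 were 21.9% against 12.5% with supplements and 31.4% against 12.7% without.

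**Figure D2:**
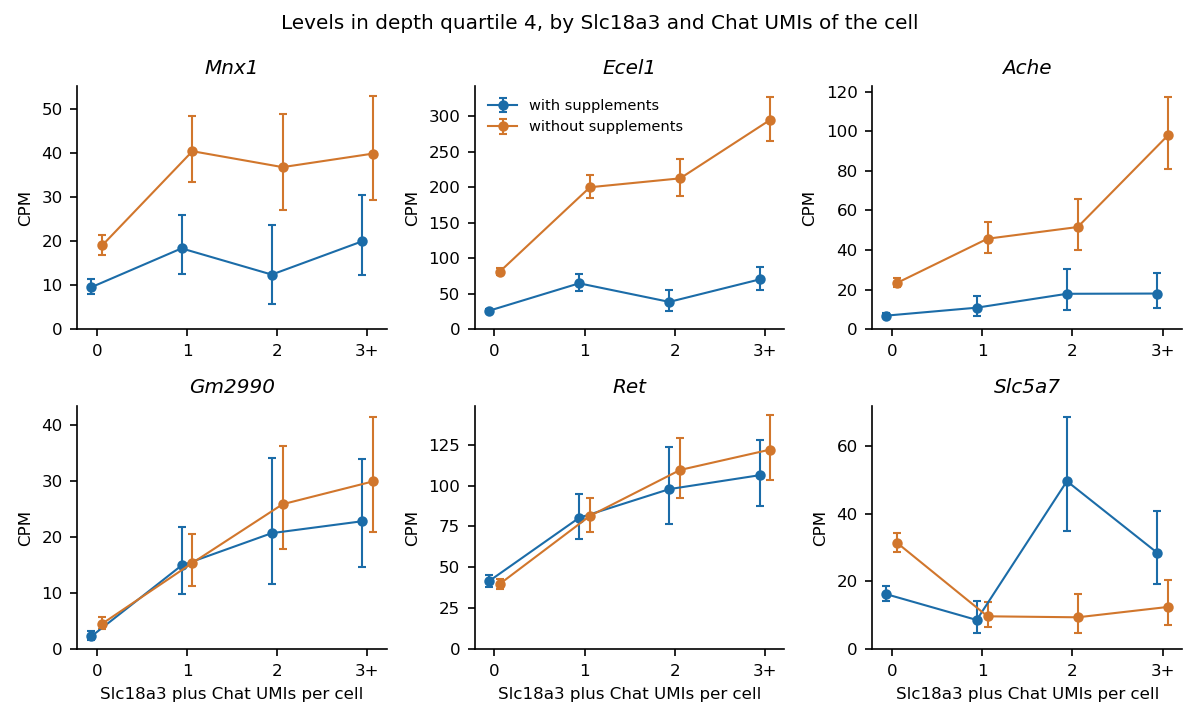
Summed level (vertical axes, CPM) of 6 genes in cells of the deepest quartile, by the Slc18a3 plus Chat UMIs of the cell (horizontal axes). Points are the libraries with (blue) and without supplements (orange), lines are 95% exact Poisson intervals, and Gm2990 stands at 2.27 CPM with and 4.52 CPM without supplements in cells with 0 UMIs.

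In the same deepest quartile the 2 markers differed in shape without supplements. There the Ecel1 intervals of cells with 1 and with at least 3 UMIs lay apart. Ecel1 without supplements had 81.2, 200.3, 213 and 295 CPM in cells with 0, 1, 2 and at least 3 UMIs of the pair. With supplements it had 26.0, 64.8, 38.6 and 70.2 CPM, and Mnx1 had 9.54, 18.3, 12.4 and 19.9 CPM. For both genes with supplements, cells with 1 UMI and those with at least 3 had overlapping intervals. Mnx1 without supplements had 19.0, 40.4, 36.8 and 39.8 CPM, so cells with 1 UMI and those with at least 3 had overlapping intervals. Ache without supplements had 23.5, 45.7, 51.6 and 97.9 CPM.

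Across all genes, those with at least 5 CPM over all kept cells were compared, and a gene was called when it was at least 1.5-fold higher or lower in positive cells. With supplements 521 of 10607 genes were higher (4.91%) and 665 lower (6.27%). Without supplements 1381 of 10628 genes were higher (13.0%) and 1003 lower (9.44%). The median log2 ratio of all genes was 0.02 with and 0.09 without supplements. Of 10111 genes tested in both libraries, 376 were higher in both (3.72%), 456 lower in both (4.51%) and 5 went opposite ways. Among genes tested in both, the 376 were 84.3% of those called higher with and 29.5% of those called higher without supplements. Across genes the log2 ratios of the libraries had a Pearson correlation of 0.80, a description of these genes, which are not independent.

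A second comparison asked what set positive cells apart from cells of a similar pan-neuronal share, called equally neuronal here. It matched positive and negative cells on depth quartile and on the pan-neuronal quintile together. The match is coarse. The pan-neuronal genes themselves kept median log2 ratios of 0.11 with and 0.08 without supplements, with 14 and 18 of 22 above 0. Far fewer genes were then called. With supplements 130 genes were higher (1.23%) and 228 lower (2.15%), and without supplements 123 were higher (1.16%) and 208 lower (1.96%). In both libraries at once 20 genes were higher and 65 lower. Values under both matchings are therefore given below. Counts of called genes in the lists below are to be read beside the shares over all genes under the same matching.

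**Figure D3:**
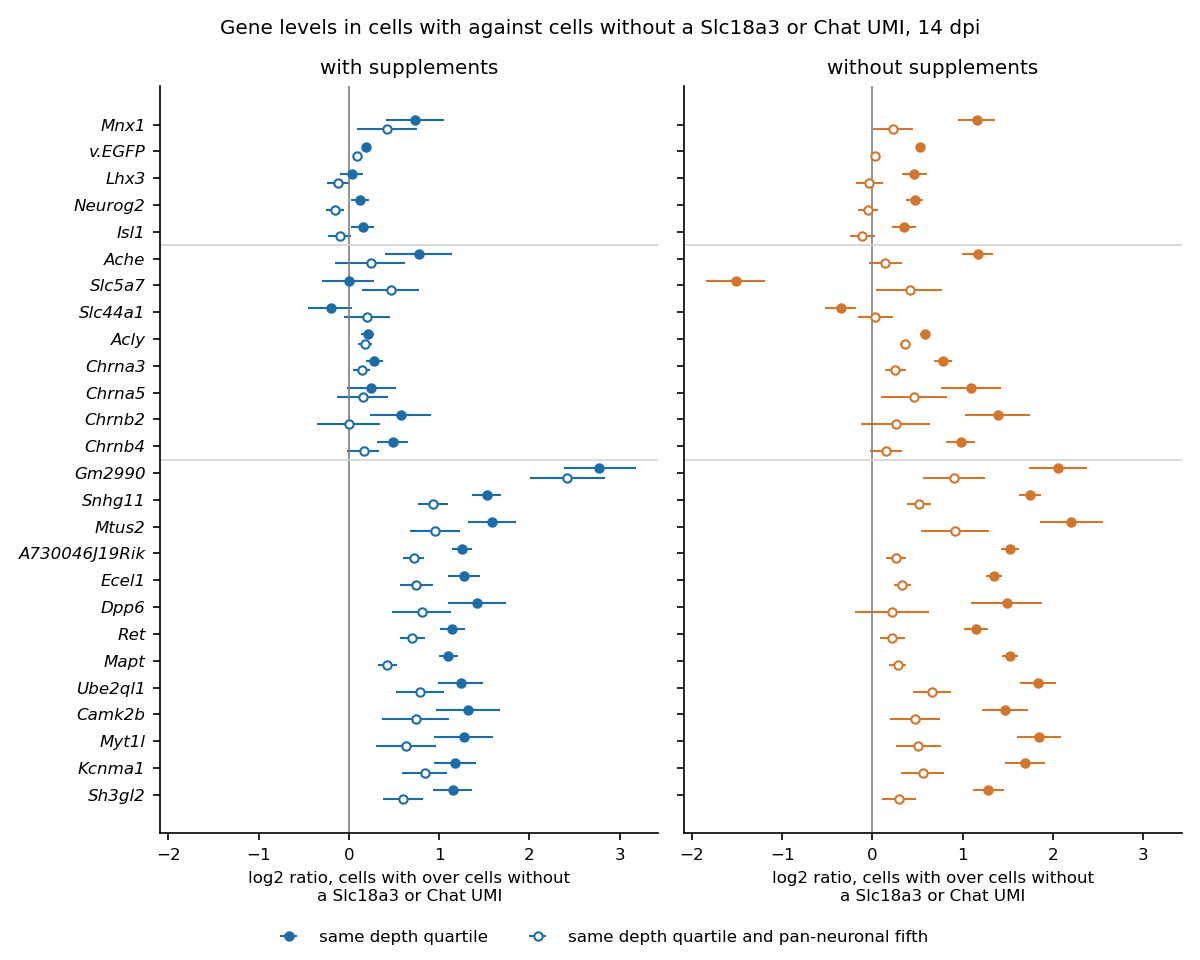
Log2 ratio of summed CPM, cells with over cells without a Slc18a3 or Chat UMI (horizontal axis), for Mnx1, the reporter and cassette genes, genes of acetylcholine handling and reception, and 13 of the genes ranked highest in both libraries. Filled points match depth quartile, open points also match the pan-neuronal quintile, lines are 95% counting intervals, and Gm2990 is the highest of the genes drawn with supplements under both matchings.

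Genes of acetylcholine handling did not move as a block. Of the 22 genes on the list of cholinergic partners, 13 reached 5 CPM with supplements, of which 1 was higher and none lower. Without supplements 12 reached it, of which 7 were higher and 1 lower. At the same depth 4.91% of all genes were higher with and 13.0% without supplements. The partners' median log2 ratios were 0.26 with and 0.80 without supplements, and 0.15 and 0.20 against equally neuronal cells, where none was called in either library. In that match 1.23% of all genes were higher and 2.15% lower with supplements, and 1.16% and 1.96% without. Having none in so short a list therefore says little. Ache, which breaks down acetylcholine, stood at 13.0 CPM in positive against 7.58 CPM in negative cells with supplements (log2 ratio 0.78, 0.40 to 1.15). Without supplements it stood at 57.6 against 25.7 CPM (1.16, 1.00 to 1.33). Against equally neuronal cells its ratios were 0.24 and 0.14, with intervals that include 0. Acly, which makes acetyl-CoA in the cytosol, stood at 316 against 273 CPM with supplements and at 606 against 406 CPM without, and kept ratios of 0.18 (0.10 to 0.25) and 0.36 (0.31 to 0.42) against equally neuronal cells.

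Of the partners tested, the choline transporter Slc5a7 was called lower without supplements. It stood at 18.8 CPM in positive and 18.9 CPM in negative cells with supplements, a log2 ratio of -0.00 (-0.30 to 0.28). Without supplements it stood at 11.05 CPM in positive against 31.4 CPM in negative cells, a log2 ratio of -1.51 (-1.84 to -1.19). Against equally neuronal cells its ratios were 0.46 (0.14 to 0.78) with and 0.41 (0.04 to 0.78) without supplements. The sign thus turned in the library without supplements. With supplements 1 positive cell held 20.3% of the Slc5a7 UMIs. Slc44a1, another choline transporter, had ratios of -0.20 with and -0.35 without supplements, neither past 1.5-fold, and 0.20 and 0.03 against equally neuronal cells, with intervals that include 0.

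The levels by pan-neuronal quintile lie beside this reversal. Slc5a7 was highest in the least neuronal quintile, at 43.4 CPM with and 76.6 CPM without supplements, and stood at 18.5 CPM and 6.89 CPM in the most neuronal quintile. Slc44a1 stood at 47.4 and 15.0 CPM in the lowest and highest quintiles with supplements and at 69.4 and 34.7 CPM without. Slc18a3 ran the other way, at 1.39 and 28.9 CPM in the lowest and highest quintiles with supplements and at 0.254 and 34.5 CPM without. Gm2990 followed Slc18a3, at 0.464 and 10.2 CPM with supplements and at 0.127 and 22.8 CPM without. In both libraries the least neuronal cells thus had the highest Slc5a7 level.

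**Figure D4:**
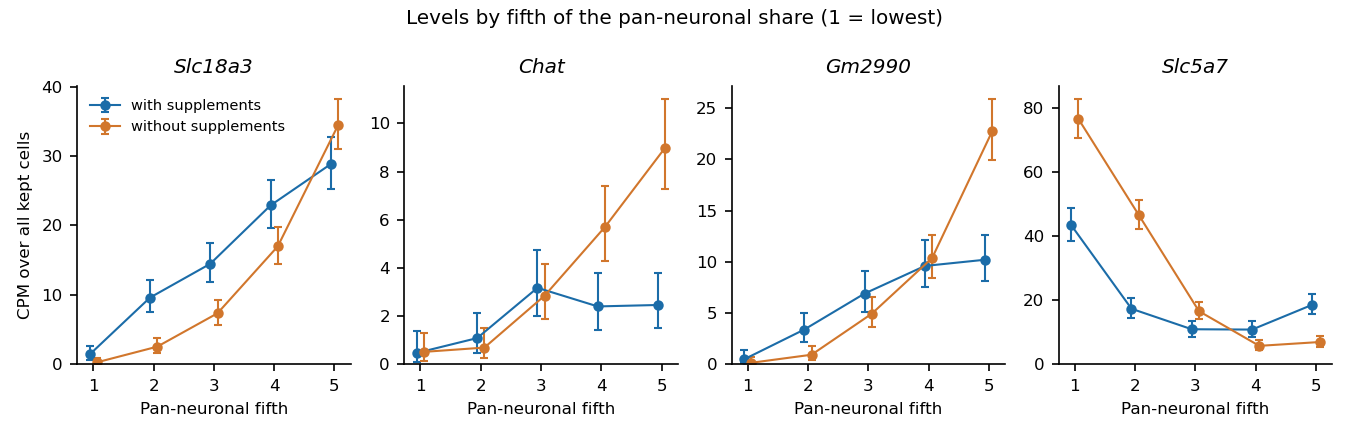
Level over all kept cells (vertical axes, CPM) of Slc18a3, Chat, Gm2990 and Slc5a7 by quintile of the pan-neuronal share of UMIs (horizontal axes, 1 is lowest). Points are the libraries with (blue) and without supplements (orange), lines are 95% exact Poisson intervals, and Slc5a7 is highest in the lowest quintile while Slc18a3 and Gm2990 are highest in the highest.

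Of the tested genes of nicotinic receptors, their chaperone and their modulator, none was past 1.5-fold with supplements, and 6 were without. Chrnb2, a subunit of neuronal receptors, stood at 15.3 against 10.2 CPM with supplements (log2 ratio 0.58) and at 14.1 against 5.40 CPM without (1.39). Chrna3, Chrna5 and Chrnb4, which are neighbours in the genome and form the receptor of autonomic ganglia, had ratios of 0.28, 0.25 and 0.49 with supplements, none past 1.5-fold. Without supplements their ratios were 0.78, 1.09 and 0.98. The receptor chaperone Tmem35a and the receptor modulator Lynx1 had ratios of 0.27 and 0.32 with supplements and 0.81 and 0.99 without. The difference between libraries was not tested. Among equally neuronal cells Chrnb2 had ratios of -0.00 with and 0.26 without supplements, both with intervals that include 0.

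Transcripts of the reporter and the cassette differed by less than 1.5-fold. The v.EGFP transcript of the reporter had 2679 CPM in positive against 2345 CPM in negative cells with supplements (log2 ratio 0.19) and 2573 against 1783 CPM without (0.53). The cassette factors Lhx3, Isl1 and Neurog2 had ratios of 0.03, 0.15 and 0.13 with supplements and 0.47, 0.35 and 0.47 without. All 3 lay between -0.15 and -0.03 against equally neuronal cells. Trp53, the gene of p53, was lower in positive cells at 88.9 against 119 CPM with supplements (-0.42) and at 78.1 against 104 CPM without (-0.41), neither past 1.5-fold. Hras had ratios of 0.13 and 0.15.

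Motor neuron transcription factors were called in a minority. Of 36 listed, among them Mnx1 and the cassette factors Lhx3, Isl1 and Neurog2, 25 reached 5 CPM with supplements, of which 2 were higher and 3 lower, and 21 without supplements, of which 8 were higher and 1 lower. Mnx1, described above, is among those higher in both. Over all genes at the same depth 4.91% were higher and 6.27% lower with supplements, and 13.0% and 9.44% without. Esrrg, a nuclear receptor of gamma motor neurons, stood at 36.4 against 20.6 CPM with supplements (log2 ratio 0.82) and at 72.7 against 32.1 CPM without (1.18). The T-box factors Tbx2 and Tbx3 had ratios of -0.93 and -0.89 with supplements, and Tbx3 had -0.96 without, where Tbx2 had -0.09 with an interval that includes 0. Among other members of the list, Olig2, which marks motor neuron progenitors, had no UMI in positive cells of either library. Among equally neuronal cells no factor of the list was higher past 1.5-fold. In that match only 1.23% of all genes were higher with and 1.16% without supplements, so having none says little. In the same match Foxp2 (named after its values were seen) and Tbx3 were lower with supplements at -0.90 and -0.70.

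Hox genes, which set the position of motor neurons along the body, were called higher or not at all at the same depth. Of 27 listed, 2 of 15 tested were called higher with supplements and 6 of 11 without, and none lower. Over all genes 4.91% were higher with and 13.0% without supplements. The median log2 ratios of the Hox genes were 0.40 and 0.62, against -0.02 and 0.03 among equally neuronal cells, where none was higher and 1 was lower, with supplements. In that match 1.23% of all genes were higher with and 1.16% without supplements. Hoxa7 stood at 45.9 against 33.1 CPM with supplements (0.47) and at 43.8 against 26.6 CPM without (0.72). Hoxd10, of the lumbar region, stood at 22.0 against 16.5 CPM (0.42) and at 43.7 against 25.6 CPM (0.77).

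Effector genes of motor neurons were called in both directions. Of 34 listed, 4 of 25 tested were higher and 2 lower with supplements, and 10 of 23 were higher and 3 lower without. At the same depth 4.91% of all genes were higher and 6.27% lower with supplements, and 13.0% and 9.44% without. The few lower effector genes therefore say little. Ret, the receptor that signals for GDNF, stood at 100.0 CPM in positive against 45.2 CPM in negative cells with supplements (log2 ratio 1.15, 1.01 to 1.28) and at 95.9 against 43.3 CPM without (1.15, 1.02 to 1.28). Its ratios against equally neuronal cells were 0.70 and 0.22. The heavy neurofilament Nefh stood at 8.87 against 4.24 CPM with supplements (1.06) and at 30.4 against 8.11 CPM without (1.91), and kept 0.64 and 0.67 against equally neuronal cells. The adhesion molecule Alcam was lower at -0.67 and -0.89, but its ratios were -0.09 and 0.05 against equally neuronal cells. Spp1, the secreted osteopontin, stood at 1384 against 1254 CPM with supplements (0.14) and at 123 against 637 CPM without (-2.37).

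Of a list of receptors for the supplements and their relatives, Ret and Ntrk3 were higher and Fgfr1 and Tgfbr2 each lower past 1.5-fold in 1 library. Ntrk3 is a neurotrophin receptor whose main ligand was not among the supplements. It stood at 69.5 against 40.9 CPM with supplements (log2 ratio 0.76) and at 38.8 against 12.2 CPM without (1.67). Fgfr1, a fibroblast growth factor receptor, had -0.59 with and -0.50 without supplements, and Tgfbr2, the type II TGF-beta receptor, had -0.52 and -0.78. In both libraries 10 of the 15 listed receptors were tested, of which 2 were higher and 1 lower with supplements and 3 were higher and 1 lower without. The shares over all genes at the same depth were 4.91% higher and 6.27% lower with supplements, and 13.0% and 9.44% without. Having 1 lower in so short a list therefore says little. Among equally neuronal cells Fgfr1 stood at 0.06 with and 0.23 without supplements.

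The genes ranked highest in both libraries included known neuronal genes. After Gm2990 the genes named by the rule on the interval bound nearest 0 included Snhg11, Mtus2, A730046J19Rik, Ecel1, Dpp6, Ret, Mapt, Ube2ql1, Camk2b, Myt1l, Kcnma1 and Sh3gl2. Snhg11, a noncoding host of small nucleolar RNAs that is abundant in neurons, stood at 85.1 against 29.6 CPM with supplements (log2 ratio 1.53) and at 132 against 39.4 CPM without (1.74). Mtus2, a microtubule-associated protein, stood at 30.9 against 10.3 CPM (1.59) and at 19.7 against 4.30 CPM (2.20). Mapt, the axonal tau protein, stood at 169 against 78.8 CPM (1.10) and at 224 against 77.7 CPM (1.53). Myt1l, which represses non-neuronal programs, had ratios of 1.27 and 1.85, and Camk2b, a calcium-dependent kinase, 1.32 and 1.47.

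Lists of neuronal genes were higher in positive cells and lay nearer 0 once cells were matched on the pan-neuronal share, a match that uses the first list itself. Of 22 pan-neuronal genes 10 were higher with and 21 without supplements, none was lower, and the median log2 ratios were 0.57 and 1.10. Synaptic vesicle genes gave 14 of 25 higher with and 22 of 26 without supplements, with medians of 0.61 and 0.88. Cplx1, a clamp of vesicle fusion, stood at 87.3 against 42.2 CPM with supplements (1.05) and at 88.0 against 28.5 CPM without (1.63). Ion channel genes gave 16 of 23 higher with and 20 of 22 without supplements. At the same depth 4.91% of all genes were higher with and 13.0% without supplements. Gria3, an AMPA receptor subunit, was the 1 channel gene called lower with supplements, at 20.2 against 30.4 CPM (-0.59). Among equally neuronal cells the medians of the vesicle and channel lists were 0.17 and 0.19 with supplements and 0.05 and 0.27 without.

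Most fibroblast and cell cycle genes were lower in positive cells of the same depth. Of 24 fibroblast genes 16 were lower with and 18 without supplements, none was higher, and the medians were -1.12 and -1.60. At the same depth 6.27% of all genes were lower with and 9.44% without supplements. Among equally neuronal cells 4 fibroblast genes were lower with and 3 without supplements, with medians of -0.19 and -0.20. In that match 2.15% of all genes were lower with and 1.96% without supplements. Col1a1, the main fibrillar collagen, stood at 10.1 CPM in positive against 72.8 CPM in negative cells with supplements (log2 ratio -2.85) and at 63.7 against 472 CPM without (-2.89). Pdgfra and Thy1, also on the fibroblast list, were not lower, with ratios of 0.15 and 0.17 with supplements and 0.35 and 0.06 without. Other matrix or fibroblast genes named by the rule, Mgp, Dcn, Lum, Col3a1, Col5a3 and Apod, had ratios between -4.10 and -2.33 over both libraries. Single cells weighed on them, since 1 positive cell held 31.4% of the Mgp UMIs with and 36.5% without supplements, and 1 held 48.9% of those of Dcn without supplements. The chemokine Ccl7 had no UMI in positive cells with supplements, against 7.37 CPM in negative cells, and with 3 counts in their place its log2 ratio would be -4.01, an upper limit.

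With supplements 17 of 18 cell cycle genes were at least 1.5-fold lower, and without supplements all 18, at medians of -1.90 with and -2.44 without supplements. Mki67 stood at 9.94 against 39.9 CPM with supplements and at 9.43 against 80.3 CPM without (log2 ratio -3.09). Against equally neuronal cells its ratios were -0.82 and -1.05, and 13 and 11 genes of the list were still called lower with and without supplements. Cenpe and Kif11, motors of the mitotic spindle, had ratios of -2.83 and -3.52 with supplements and -2.70 and -2.88 without. At 5000 UMIs per cell Mki67, Top2a or Cdk1 was detected in 4.22% of positive against 16.2% of negative cells with supplements and in 9.85% against 21.5% without. No background share was measured for these genes.

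**Figure D5:**
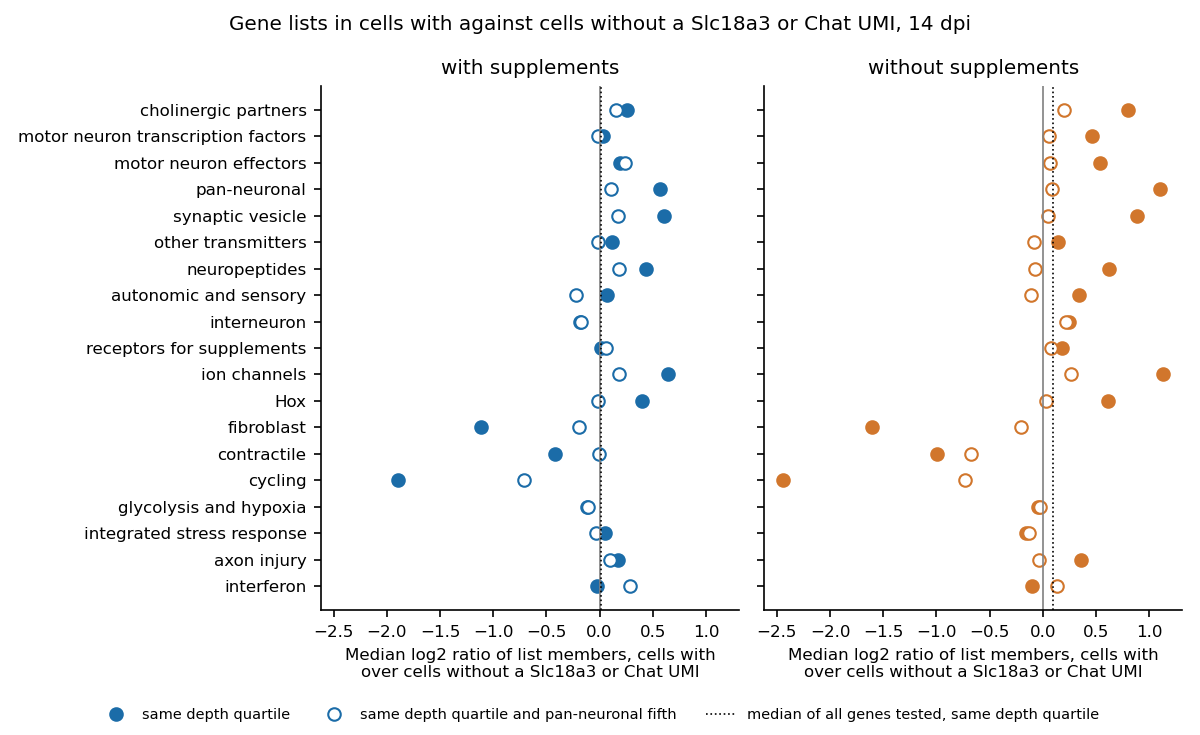
Median log2 ratio of the tested members of 19 gene lists (rows), cells with over cells without a Slc18a3 or Chat UMI (horizontal axis), in the libraries with (left) and without supplements (right). Filled points match depth quartile, open points also match the pan-neuronal quintile, the dotted line is the median of all genes tested, and the cell cycle list is lowest at -1.90 with and -2.44 without supplements.

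A small set of genes stood higher in positive than in equally neuronal cells of both libraries. Apart from Gm2990, Mtus2, Ube2ql1 and Rsad2, the genes in this paragraph were chosen from the 20 after their values were seen. Gm2990 kept log2 ratios of 2.42 with and 0.90 without supplements. Mtus2 kept 0.95 and 0.91, and the ubiquitin-conjugating enzyme gene Ube2ql1 kept 0.79 and 0.66. Synpr, the vesicle protein synaptoporin, stood at 42.2 against 27.8 CPM of equally neuronal cells with supplements (0.60) and at 21.0 against 11.3 CPM without (0.89). Rgs2, a brake on G-protein signalling, stood at 51.1 against 32.7 CPM (0.64) and at 89.0 against 53.6 CPM (0.73). Megf11, a cell surface protein, kept 0.69 and 0.74, and Tmem255a 0.79 and 0.91. Six3, a homeobox factor of forebrain and eye, kept 0.96 and 1.12, from 52 UMIs with and 48 UMIs without supplements. The interferon-induced Rsad2 had 0.90 and 0.95, but 1 positive cell held 24.3% of its UMIs with and 34.5% without supplements.

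Positive cells also held transcripts of other transmitter systems, and these genes were chosen from the lists after their values were seen. After thinning to 5000 UMIs a vesicular glutamate transporter gene was detected in 2.41% of positive against 2.38% of negative cells with supplements and in 4.82% against 2.48% without. GABA genes (Gad1, Gad2 or Slc32a1) were detected in 3.31% against 2.38% with supplements, with overlapping intervals, and in 0.419% against 0.340% without. Tph1, an enzyme of serotonin synthesis, was found in 19.0% against 19.6% with supplements and in 2.10% against 1.39% without.

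Neuropeptide genes differed from one another. Cartpt stood at 539 CPM in positive against 299.6 CPM in negative cells with supplements (log2 ratio 0.85) and at 57.1 against 13.5 CPM without (2.08, 1 cell holding 20% of the UMIs). Penk, the enkephalin precursor, stood at 11.6 against 17.4 CPM with supplements (-0.58) and at 9.56 against 54.1 CPM without (-2.50). Of 10 peptide genes tested with supplements 4 were higher and none lower, and of 7 tested without supplements 4 were higher and 2 lower. The shares over all genes at the same depth were 4.91% higher and 6.27% lower with supplements, and 13.0% and 9.44% without.

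Markers of other cell types that a fibroblast culture could hold were summed, and their part in the gene comparisons was not tested. The summed levels in positive cells, with and without supplements, were 9.48 and 9.68 CPM over 12 glial genes, 5.66 and 3.35 CPM over 7 endothelial genes and 3.06 and 2.61 CPM over 8 macrophage genes. In negative cells they were 12.5 and 9.45 CPM, 8.16 and 2.29 CPM, and 6.4 and 9.02 CPM. The 13 skeletal muscle genes summed to 57.8 and 32.6 CPM, against 60.3 and 45.4 CPM in negative cells. Among the autonomic and sensory genes 4 of 15 were tested in each library. Prdm8 was higher at 0.60 with and 1.21 without supplements, and Hand2, a factor of sympathetic neurons, had -0.66 and -0.05.

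Between the libraries, positive cells were set side by side without a test. Of 11123 genes, 1313 (11.8%) were at least 1.5-fold higher and 1857 (16.7%) lower in positive cells with supplements than in positive cells without. Mnx1 was lower with supplements, at 17.3 against 40.3 CPM (log2 ratio, with over without supplements, -1.22), and Ecel1 at 63.6 against 216 CPM (-1.76). The same ratios over negative cells were -0.68 and -1.75. Ret, at 100.0 against 95.9 CPM, and Gm2990, at 20.5 against 21.7 CPM, had ratios of 0.06 and -0.08 with intervals that include 0. Of the lower genes, Ache stood at 13.0 against 57.6 CPM (-2.15) and Nefh at 8.87 against 30.4 CPM (-1.78). Supplements, culture and library cannot be told apart here.

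At 4 dpi few cells had a UMI of the pair. Of 4492 kept cells 4 had 1 Slc18a3 UMI each, 0.0890% (0.0243 to 0.228), and none had a Chat UMI, which by the limit of 3 counts allows a share of cells with a UMI of up to 0.0668%. At a median of 2312.5 UMIs per cell this limits detection and not expression. Depth differs, so cells were thinned to 2000 UMIs, which gave 3.14% with supplements and 3.28% without supplements at 14 dpi, and 0.0732% (2 of 2733 cells) at 4 dpi. These 4 cells lay in the highest pan-neuronal quintile of their library, and 3 of them had v.EGFP and Tubb3 UMIs. The 4 dpi cells had passed another gate and another dissociation, so stage and gate cannot be told apart.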

How the data were processed

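Single-cell RNA was counted in 3 libraries. The deposited values are UMI counts of each gene in each barcode. Per the file headers they come from Cell Ranger 6.1.1, on build GRCm39 per the submitters' processing notes. Barcode calling and the use of introns or strand are not given in the sources used here. Features of 1 symbol were summed. Scrublet (scanpy 1.11.5, Python 3.11.15, numpy 2.4.6, scipy 1.17.1) called 3, 2 and 2 doublets, so few that the caller has not worked. No cell was removed as a doublet, and 1 alternative drops the top 5% of scores. Summed counts became CPM. The level of negative cells was weighted to the positive cells' UMIs per depth quartile (or quartile and pan-neuronal quintile), with Slc18a3 and Chat kept in totals only. Intervals are exact Poisson or exact binomial (Clopper-Pearson) counting intervals at 95%, for weighted levels on effective counts, and a count of 0 was taken as 3. The method was tested on simulated data in which cells differed only by depth, set gene changes and counting error. There 95.34% of intervals held the true ratio with and 94.98% without supplements. Such data cannot test the intervals under the spread between real cells. The library with supplements held 37112015 UMIs, that without supplements 46150432 and the 4 dpi library 12290301.

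The genes named are the 14 highest and 12 lowest by the interval bound nearest 0 in the library where it is nearest, up to 4 of each of 25 lists (the 2 highest and the 2 lowest by mean ratio), and the 5 with the largest difference between libraries. Some genes under these rules are not reported here. Other members of the lists and of the locus are named as stated. The cells, lists and rules were chosen with earlier results of these data known. Alternatives changed the cell filter, depth, matching, member rule, doublets, cell weighting, totals and gene filter. Promoters are from RefSeq and the locus from GENCODE M21, both on GRCm38, and no coordinate was carried between builds.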

Additional observations from a re-analysis of the deposited data

Results flagged for a closer look

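Opposite directions in the libraries, with no test of the difference, mark the peptide gene Tac1 (substance P precursor) and the serine protease gene Prss23. Tac1 stood at 38.7 CPM in positive against 18 CPM in negative cells with supplements (log2 ratio 1.10), where 1 positive cell held 68.4% of its UMIs. Without supplements it stood at 0.621 against 18.3 CPM (-4.88). Prss23 stood at 12.7 against 7.39 CPM with supplements (0.78) and at 1.61 against 10.2 CPM without (-2.66). Its highest positive cell held 8.43% of the UMIs with and 7.69% without supplements. The 4 dpi library, which the comparisons do not use, held 4 Slc18a3 UMIs.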

How the results depend on the processing

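No paired analysis was possible because each group has 1 library, and for the same reason no replicate could be left out. The shares of positive cells, 14.8% with and 13.1% without supplements, moved with depth and rule: 6.90% and 7.26% at 5000 UMIs, 3.14% and 3.28% at 2000 UMIs, and 5.49% and 4.63% with at least 2 UMIs asked for. The genes called higher were 521 with and 1381 without supplements, and the genes called lower 665 and 1003. Against equally neuronal cells they were 130 and 123 higher, 228 and 208 lower. With members at 2 or more UMIs the library with supplements gave 942 higher and 1038 lower, and with members by Chat alone, which are fewer, 982 and 1329. A minimum of 20 CPM, which tests fewer genes, gave 192 and 607 higher and 209 and 499 lower, and a minimum of 1 UMI, which tests more, 2992 and 4581 higher and 2169 and 2267 lower. Depth deciles, no depth match, other cell filters, doublet scores, weighting and totals kept these counts within 1.5 times. Of the named genes' ratios 9 reversed, and the cause was not tested. Against equally neuronal cells these were Slc5a7 (0.41), Mmp3 (1.15), Alcam (0.0454), Uts2b (-0.0735), Mcm2 (0.19), Ifit3 (0.14) and Ifi44 (0.13) without supplements and Fgfr1 (0.0562) with them. With members by Chat alone it was Tac1 with supplements (-1.10). Depth limits the call of a negative cell, since most positive cells had 1 UMI.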

Other observations

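Cells with Xist but no Y-linked UMI were positive in 14.7% of 850 with and 12.7% of 1864 without supplements, and cells with Y-linked UMIs but no Xist in 15.5% of 1015 and 13.4% of 1238, with overlapping intervals.

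Of the other genes with the largest difference between libraries, the protease gene Mmp3 stood at 0.153 CPM in positive against 16.6 CPM in negative cells with supplements and at 31.4 against 110 CPM without, where 1 positive cell held 94.5% of its UMIs. Ccl20, a chemokine, stood at 8.72 against 7.57 CPM with supplements and at 0.248 against 6.64 CPM without. Mcpt8, a mast cell protease gene, stood at 4.59 against 17.4 CPM with supplements and at 0.372 against 15.7 CPM without.

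Th, the enzyme of catecholamine synthesis, stayed under 5 CPM. It had 4.47 CPM in positive against 0.975 CPM in negative cells without supplements, and 0.459 against 0.170 CPM with them. Chodl, a surface protein of fast motor neurons, stood at 42.7 against 28.5 CPM with supplements and at 102 against 35.5 CPM without. Its log2 ratios against equally neuronal cells were 0.37 and 1.03. Th and Chodl were not named by the rules and were picked after their values were seen.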
